A study of Homo sapiens with 6 samples.

Results

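The zinc-finger genes of chromosome band 19p12 were compared between HAP1 cells and HELLS KO cells along their chromosomal order. They were chosen as 35 listed symbols of this band, and all 35 were found among the 60483 gene identifiers of the count table. In the GENCODE release 44 annotation of GRCh38 each of them is a protein-coding gene, and together they span 4.34 Mb of chromosome 19, from 19785839 at ZNF506 to 24129968 at ZNF254. HAP1 (C631) is a near-haploid human line, labelled as chronic myelogenous leukemia. HELLS KO is a purchased HAP1 derivative with an insertion of a single base in exon 3 of HELLS, an SNF2-family chromatin remodeller. Both genotypes were grown normally, without a damaging agent, and 3 libraries of total RNA were made from each. Because a knockout line was set against its parental line, an effect of the HELLS mutation and a difference peculiar to the knockout line cannot be told apart.

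The genes of this cluster encode proteins with a KRAB domain followed by an array of C2H2 zinc fingers. The fingers bind DNA, often within transposable elements, and the KRAB domain recruits the corepressor TRIM28, which brings in the histone methyltransferase SETDB1 and HP1 proteins and so builds silent chromatin. The cluster grew by tandem duplication in primates, and many KRAB zinc-finger genes of chromosome 19 themselves lie in chromatin that carries the silent mark H3K9me3. HELLS is known for its part in DNA methylation and in the compaction of repeats. By ELISA the authors found no effect of HELLS loss on global CpG methylation in HAP1, a measure that does not resolve single genes.

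The libraries held between 13641237 and 24400187 counts, with replicate 3 the deepest of both genotypes and the only replicate with a batch label. A count of 3 then equals 0.123 to 0.220 CPM (counts relative to the library total, to which edgeR's TMM scaling was applied in the values below), a limit that covers counting error only. HELLS itself had 1444, 1488 and 3671 counts in the HAP1 libraries, against 1410, 1375 and 2802 for HELLS KO, and counts over the gene cannot check an insertion of a single base (log2 fold change -0.24, SE 0.18, edgeR adjusted p = 1). Of 12 myeloid markers, SPI1 was at 0 in every library, PTPRC and MPO had at most 2 counts, and only KIT was abundant, at 27.0 ± 10.4 CPM in HAP1, against 3.56 ± 1.85 for HELLS KO (SD, n = 3). The 12 summed to between 22.3 and 42.2 CPM in HAP1 and between 4.34 and 7.97 in HELLS KO, and apart from KIT the defining myeloid markers were nearly absent. The 8 erythroid markers summed to 4.04 to 4.92 CPM in HAP1 and 4.68 to 8.59 in HELLS KO, with HBG1 at 0. The 10 testis markers summed to 39.3 to 46.2 and 15 to 20.3 CPM, nearly all of it DAZL, which was lower in HELLS KO, with PRM1, PRM2 and AKAP4 at 0. The part of these marker differences in the results for the zinc-finger genes was not tested.

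Promoter sequences show how alike the members of the cluster are. RefSeq promoters (GRCh38.p14, 300 bases, of which 250 lie before the start) were at hand for 27 of the 35 genes. The 250 bases before the start are given for ZNF93, ZNF430 and ZNF714, whose RNA rose from almost nothing in HELLS KO, and for ZNF431, the next gene after ZNF714, which was not called. They are written 5′ to 3′ on the + strand, with every CG dinucleotide, the site of DNA methylation, in capitals. The positions are chr19:19900696-19900945 for ZNF93, chr19:21020407-21020656 for ZNF430, chr19:21081953-21082202 for ZNF714 and chr19:21141790-21142039 for ZNF431.
ZNF93: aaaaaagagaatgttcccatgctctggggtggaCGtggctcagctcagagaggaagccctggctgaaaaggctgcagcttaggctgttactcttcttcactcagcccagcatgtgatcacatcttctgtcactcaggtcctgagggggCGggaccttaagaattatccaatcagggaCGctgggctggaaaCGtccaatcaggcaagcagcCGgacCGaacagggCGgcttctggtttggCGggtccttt
ZNF430: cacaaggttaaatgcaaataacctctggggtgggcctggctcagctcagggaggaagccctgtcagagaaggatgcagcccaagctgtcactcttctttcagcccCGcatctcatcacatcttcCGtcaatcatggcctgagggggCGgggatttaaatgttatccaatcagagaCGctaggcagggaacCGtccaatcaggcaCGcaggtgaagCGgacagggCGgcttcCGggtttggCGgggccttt
ZNF714: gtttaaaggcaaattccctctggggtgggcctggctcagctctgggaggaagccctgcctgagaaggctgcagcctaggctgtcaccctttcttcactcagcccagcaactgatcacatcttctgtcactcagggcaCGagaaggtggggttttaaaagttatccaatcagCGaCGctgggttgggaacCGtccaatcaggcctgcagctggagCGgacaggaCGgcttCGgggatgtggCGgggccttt
ZNF431: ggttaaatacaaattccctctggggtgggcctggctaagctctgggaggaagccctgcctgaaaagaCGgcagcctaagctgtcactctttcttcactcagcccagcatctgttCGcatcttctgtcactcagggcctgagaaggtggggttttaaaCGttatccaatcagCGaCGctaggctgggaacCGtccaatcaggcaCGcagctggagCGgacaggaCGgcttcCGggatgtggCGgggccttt

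ZNF714 and ZNF431 were the most alike of all promoter pairs of the cluster, with 91.0% identity over the 300 bases. ZNF430 shared 84.0% with ZNF431 and 81.7% with ZNF714, and ZNF93 shared 81.0% with each of ZNF714 and ZNF431. The 250 bases held 8 CG dinucleotides in ZNF93, 10 in ZNF430, 8 in ZNF714 and 11 in ZNF431. The letters CCAAT, searched on both strands, were present in 27 of the 27 promoters of the cluster and in 34.6% of the 35116 promoters of the table. The 4 genes shown have 2 copies each. Since the genes arose by duplication, their promoters are not independent of each other.

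Expression of 10 of the 35 genes rose in HELLS KO, and none was called lower. The 10 were ZNF253, ZNF93, ZNF90, ZNF486, ZNF626, ZNF85, ZNF430, ZNF714, ZNF43 and ZNF257. Calls required a change of 1 or more on the log2 scale in either direction and, from the quasi-likelihood test of edgeR, an adjusted p below 0.05 (Benjamini-Hochberg, over the 17925 genes tested). In bulk RNA, more cells expressing a gene and more RNA per cell cannot be told apart. Of the 35 genes, 29 passed the filter on low counts and were tested. Of all genes tested, 1.50% were called higher and 0.720% lower. In a fit with a replicate block, the members called higher were 13, adding ZNF737, ZNF728 and ZNF730, against 2.03% of all genes higher and 1.49% lower in that fit. Of the 29 tested members, the same 13 had an unadjusted p under 0.05 and a positive fold change, against 3.29% of all genes. With a negative fold change 0 members had one, against 3.30% of all genes. DESeq2 called 13 of the members higher and 1, ZNF729, lower, against 1.65% and 0.947% of the 25757 genes to which it gave an adjusted p. In 13 of the 29 tested members, again the same genes, the 3 HELLS KO libraries lay above the 3 HAP1 libraries, against 4.99% of all tested genes. No tested member showed the reverse, which held for 5.09% of all tested genes. These counts use the libraries that gave the calls, so they restate the calls and add no support to them.

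Being tested depended on the filter. A level of 0.686 CPM, or 10 counts in a library of median depth, was reached in all HELLS KO libraries but not in all HAP1 libraries by 11 members. Passing the filter took any 3 libraries at about this level. Of the 11, 6 reached it in no HAP1 library and 5 in some but not all. None of the 11 would have passed on its HAP1 libraries alone, so all 11 were tested only through HELLS KO, where they were high. All 11 are among the 13, and nothing is read from that count. Of the 17 members that reached that level in all HAP1 libraries, 2 were among the 13, ZNF90 and ZNF730. The median log2 fold change of the 29 tested members was 0.34, against 0.01 over all tested genes. It could not move when the genes at 0 in HAP1 were set to their bounds, which lie far above it. It was -0.07 over the 17 members with at least 10 counts in every library, 0.06 without HELLS KO replicate 3 and 0.75 without HAP1 replicate 3.

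**Figure D1:**
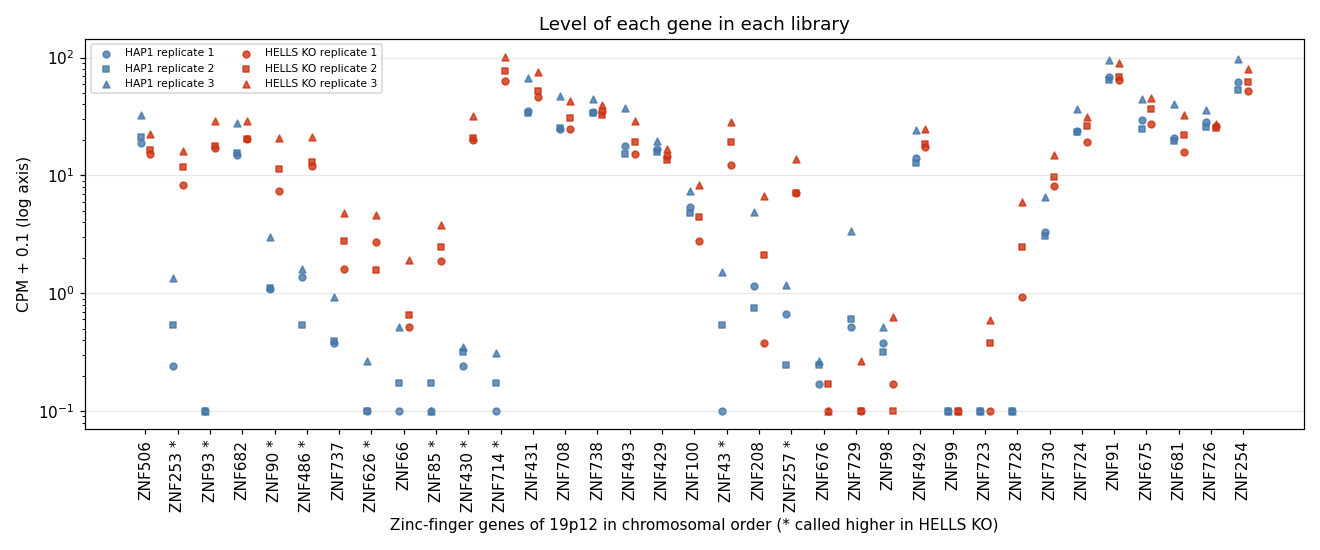
CPM + 0.1 on a log axis for each of the 35 genes, in chromosomal order, with 1 point per library (HAP1 blue, HELLS KO red, marker shape for the replicate), so that 0 counts plot at 0.1. In the 10 starred genes all red points lie above all blue points, while genes such as ZNF91, ZNF254 and ZNF738 have interleaved points.

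ZNF714 showed the highest level among the genes that rose. It lies on the + strand from 21082159 to 21125270 and had 0, 1 and 5 counts in the HAP1 libraries, against 919, 1088 and 2481 for HELLS KO. This was 0.0937 ± 0.106 CPM against 80.4 ± 19.7 (SD, n = 3), with a log2 fold change of 9.38 (SE 0.48, adjusted p = 0.00019, edgeR), and of 10.85 without HAP1 replicate 3. On FPKM, which takes gene length into account, it moved from rank 28 in HAP1 to rank 1 in HELLS KO among the 33 members with values, reaching 9.84 ± 2.45 FPKM (SD, n = 3).

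ZNF430, the gene before ZNF714, had 2, 3 and 6 counts in the HAP1 libraries, against 287, 294 and 772 for HELLS KO. The level of ZNF430 was 0.203 ± 0.0563 CPM in HAP1, against 24.0 ± 6.68 for HELLS KO (SD, n = 3), or a fold change of 6.79 on the log2 scale (SE 0.36, adjusted p = 0.00022, edgeR). ZNF431 starts 16.8 kb after the end of ZNF714, and its counts were 497, 465 and 1623 in HAP1 and 675, 742 and 1819 in HELLS KO. The ZNF431 libraries overlapped between the genotypes, and its log2 fold change was 0.34 (SE 0.31, adjusted p = 1, edgeR).

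ZNF93, known as a repressor of LINE-1 elements, was without a count in the 3 HAP1 libraries and had 245, 251 and 704 counts in HELLS KO. At 21.1 ± 6.77 CPM (SD, n = 3) in HELLS KO it was at least 96.7-fold higher, computed against 3 counts in the shallowest HAP1 library (adjusted p = 0.0020, edgeR). ZNF682, the next gene, on the opposite strand, was expressed in both genotypes, with 212, 211 and 663 counts in the HAP1 libraries, against 293, 291 and 705 for HELLS KO, a log2 difference of 0.26 (SE 0.29, adjusted p = 1, edgeR).

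ZNF85 had 0, 1 and 0 counts in the HAP1 libraries, against 26, 34 and 90 for HELLS KO. The ratio of the genotypes was 147, with an exact 95% counting interval from 25.9 to 5830, so its size is poorly fixed (adjusted p = 0.0072, edgeR). ZNF626 had 0, 0 and 4 counts in the HAP1 libraries, against 38, 21 and 110 for HELLS KO, a log2 difference of 5.18 (SE 0.88, adjusted p = 0.026, edgeR). ZNF626 lost its call without any single library other than HAP1 replicate 3 (adjusted p 0.068 to 0.097, edgeR). Without HAP1 replicate 3 the fitted value of ZNF626 was 8.57, and that of ZNF85 was 8.60 without HAP1 replicate 2, against 6.63 with all libraries, and 5.93 without HAP1 replicate 3. HAP1 is then at 0 for ZNF626 and, without replicate 2, for ZNF85, so these fitted values depend on the prior count. Both genes remained weakly expressed in HELLS KO, at 0.552 ± 0.208 and 0.372 ± 0.202 FPKM (SD, n = 3).

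ZNF43 had 0, 6 and 34 counts in the HAP1 libraries, against 178, 272 and 683 for HELLS KO (log2 fold change 4.83, SE 0.81, adjusted p = 0.025, edgeR). ZNF253, first cloned from bone marrow, had 2, 6 and 30 counts in the HAP1 libraries, against 120, 168 and 388 for HELLS KO (log2 fold change 4.16, SE 0.62, adjusted p = 0.015, edgeR). ZNF253 lost its call without HAP1 replicate 2 (adjusted p = 0.055, edgeR) or HELLS KO replicate 2 (0.081), and ZNF43 without HAP1 replicate 2 (0.088) or any of HELLS KO replicates 1 (0.065), 2 (0.12) and 3 (0.053). Without HAP1 replicate 3 the log2 fold changes were 5.35 for ZNF253 and 6.48 for ZNF43. In both genes replicate 3 carried most of the HAP1 counts, and it still lay below every HELLS KO library on the CPM scale.

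ZNF257, also from bone marrow, had 8, 2 and 26 counts in the HAP1 libraries, against 102, 100 and 336 for HELLS KO (log2 fold change 3.85, SE 0.60, adjusted p = 0.018, edgeR). ZNF486 had 18, 6 and 36 counts in the HAP1 libraries, against 172, 184 and 511 for HELLS KO (log2 fold change 3.79, SE 0.45, adjusted p = 0.0068, edgeR). ZNF90 had 14, 14 and 70 counts in the HAP1 libraries, against 106, 160 and 500 for HELLS KO (log2 fold change 2.94, SE 0.56, adjusted p = 0.046, edgeR). ZNF257 lost its call without HAP1 replicate 1 (adjusted p = 0.081, edgeR), HELLS KO replicate 1 (0.059) or HELLS KO replicate 2 (0.074), and ZNF90 without any library other than HAP1 replicate 3 (0.065 to 0.15). ZNF486 and ZNF90 had more than 3 counts in every HAP1 library, while ZNF257 was below 3 in HAP1 replicate 2. Without HAP1 replicate 3 the log2 fold changes were 4.68 for ZNF257 and 3.70 for ZNF90.

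The 3 genes added by the replicate block were ZNF728, ZNF737 and ZNF730. ZNF728 had no count in the HAP1 libraries, against 12, 34 and 143 for HELLS KO, which is at least 13.9-fold higher (adjusted p = 0.070 without the block and 0.0022 with it, edgeR). ZNF737 had 4, 4 and 20 counts in the HAP1 libraries, against 22, 38 and 115 for HELLS KO (log2 fold change 2.58, SE 0.61, adjusted p = 0.12 and 0.0038), and its log2 fold change was 3.36 without HAP1 replicate 3. ZNF730 had 46, 41 and 156 counts in the HAP1 libraries, against 117, 138 and 360 for HELLS KO (log2 fold change 1.34, SE 0.38, adjusted p = 0.25 and 0.0042), and was the most abundant of the 13 in HAP1, at 4.24 ± 1.96 CPM (SD, n = 3).

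The summed level of the cluster was highest in replicate 3 in both genotypes. Summed over the 35 genes it was 422, 394 and 681 CPM in the HAP1 libraries, against 558, 645 and 897 CPM for HELLS KO, in order of replicate number. The sums overlapped between the genotypes, since HAP1 replicate 3 exceeded both HELLS KO replicates 1 and 2, but within each replicate number the sum was higher in HELLS KO (3 of 3). The sums include the 13 genes picked as higher in HELLS KO, so this order is no separate observation. The correlations between libraries do not favour matched numbers for replicates 1 and 2. Replicate 3 is the labelled batch. The 13 genes were higher in HELLS KO within each replicate number, but the fit with the replicate block picked them for such a difference. With a term for that batch edgeR called 13 members higher and 0 lower, against 2.07% and 1.59% of all genes tested. Their log2 ratios of CPM + 0.5 lay between 1.19 and 6.99 in replicate 1, between 1.54 and 7.06 in replicate 2 and between 1.13 and 7.18 in replicate 3. The 13 genes, picked as higher in HELLS KO, held 1.55% to 2.37% of the summed CPM in the HAP1 libraries and 28.9% to 32.9% in the HELLS KO libraries. The other 22 genes together had 490 ± 153 CPM in HAP1, against 483 ± 106 for HELLS KO (SD, n = 3).

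**Figure D2:**
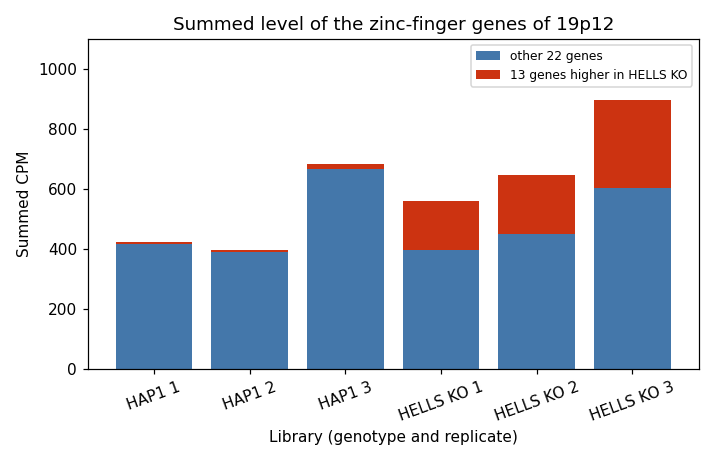
Stacked bars of the CPM summed over the 13 genes higher in HELLS KO (red) and over the other 22 genes (blue) in each library. The blue parts range from 388 to 665 CPM in HAP1 and from 397 to 601 in HELLS KO, and the red part is 6.11 to 16.1 CPM in HAP1 and 161 to 295 in HELLS KO.

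Of the 29 tested genes, 16 were called in neither fit, and all 16 were already expressed in HAP1, at a mean of 2.15 to 76.0 CPM. Their log2 fold changes ran from -0.42 for ZNF506 to 0.45 for ZNF208, 10 below 0 and 6 above, with standard errors from 0.17 to 1.03, and their libraries overlapped between the genotypes. Their adjusted p was 1 in edgeR and at least 0.16 with the block. These data do not show that the 16 were equal in the 2 genotypes. ZNF208, at 15, 9 and 114 counts in the HAP1 libraries, against 4, 29 and 161 for HELLS KO, had a log2 fold change of 1.84 without HAP1 replicate 3 and of -0.96 without HELLS KO replicate 3.

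Among the 16 were 7 of the 8 members with the highest FPKM averaged over both genotypes, the other being ZNF714. ZNF738 averaged 9.47 ± 1.53 FPKM in HAP1 against 8.99 ± 0.986 in HELLS KO (SD, n = 3), from 487, 460 and 1076 counts in the HAP1 libraries, against 511, 462 and 965 for HELLS KO. ZNF254 averaged 9.10 ± 2.97 FPKM against 8.36 ± 1.81 (SD, n = 3), from 873, 722 and 2324 counts in the HAP1 libraries, against 763, 887 and 1936 for HELLS KO. ZNF724 had 7.13, 6.88 and 10.7 FPKM in the HAP1 libraries and 5.64, 7.68 and 9.21 in HELLS KO. In each of them replicate 3 was the highest library of its genotype, and the fitted log2 fold changes were -0.07, -0.12 and -0.13.

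ZNF91, which represses SVA elements, had 6.58, 6.14 and 8.90 FPKM in the HAP1 libraries and 6.09, 6.40 and 8.47 in HELLS KO, or a fold change of -0.04 on the log2 scale (SE 0.20, adjusted p = 1, edgeR). ZNF708 averaged 6.40 ± 2.46 FPKM against 6.5 ± 1.90 (SD, n = 3), from 350, 346 and 1123 counts in the HAP1 libraries, against 359, 436 and 1050 for HELLS KO. ZNF675, a zinc-finger inhibitor of TRAF6 signalling, had 4.29, 3.59 and 6.38 FPKM in the HAP1 libraries and 3.97, 5.22 and 6.57 in HELLS KO. ZNF726 had 4.47, 4.06 and 5.54 FPKM in the HAP1 libraries and 4.09, 3.87 and 4.31 in HELLS KO. The fold changes of these 3 on the log2 scale were 0.02, 0.15 and -0.19. The remaining uncalled genes had log2 fold changes of -0.16 for ZNF493, -0.21 for ZNF429, -0.16 for ZNF100, 0.24 for ZNF492 and -0.19 for ZNF681.

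**Figure D3:**
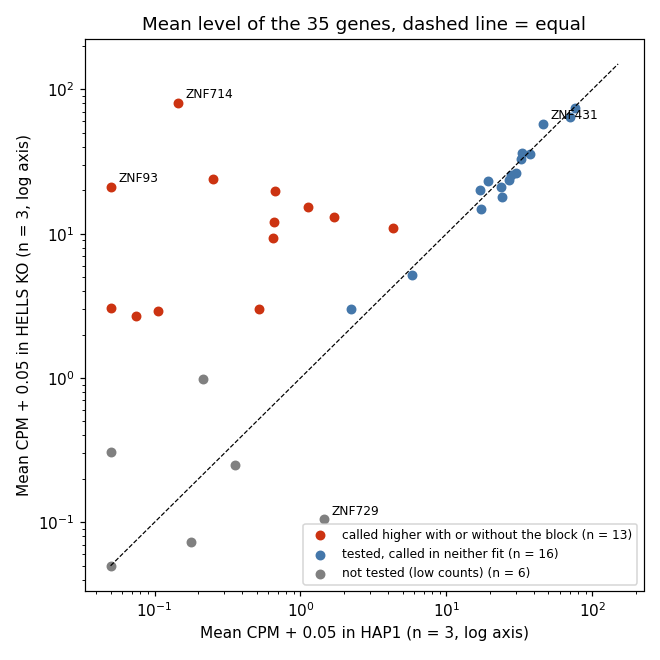
Mean CPM + 0.05 in HAP1 (x) against HELLS KO (y) for the 35 genes, both on log axes, with the line of equal levels dashed. The 16 tested genes called in neither fit (blue) lie along the line, the 13 called with or without the block (red) lie above it at HAP1 means of at most 4.24 CPM, and the 6 genes not tested (grey) lie at low levels in both.

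The 6 genes that did not pass the filter were ZNF66, ZNF676, ZNF729, ZNF98, ZNF99 and ZNF723. ZNF99 had no count in any library. ZNF676 had at most 4 counts, ZNF98 at most 13, and ZNF723 had 0 in HAP1 and 0, 4 and 12 in HELLS KO. ZNF66 had 0, 1 and 10 counts in the HAP1 libraries, against 6, 8 and 44 for HELLS KO and was not called when the filter was dropped (log2 fold change 2.30, adjusted p = 0.42, edgeR). ZNF729 went the other way, with 6, 7 and 78 counts in the HAP1 libraries, against 0, 0 and 4 for HELLS KO. Without a filter edgeR called it lower (log2 fold change -4.23, adjusted p = 0.026), as did DESeq2 (adjusted p = 0.018). Most of its HAP1 counts came from replicate 3.

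Along the chromosome, most of the genes that rose lay in the first stretch of the cluster. After ZNF506, which was not called, the 11 genes from ZNF253 to ZNF714 (19865882 to 21125270, 1.26 Mb) held 8 of the 10 called genes, and 9 with the block. The exceptions were ZNF682 and the untested ZNF66. The next 6 genes, from ZNF431 to ZNF100 (21142024 to 21767579), held 0 by either fit. The 11 genes from ZNF43 to ZNF730 held 2, ZNF43 and ZNF257, or 4 with the block, and 5 of these 11 were not tested. The last 6, from ZNF724 to ZNF254 (23221599 to 24129968), held 0 by either fit. The stretches were drawn at the calls themselves, and no test of this arrangement was made. Among the 13 were 9 of the 19 genes on the + strand and 4 of the 16 on the - strand, a difference that was not tested.

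**Figure D4:**
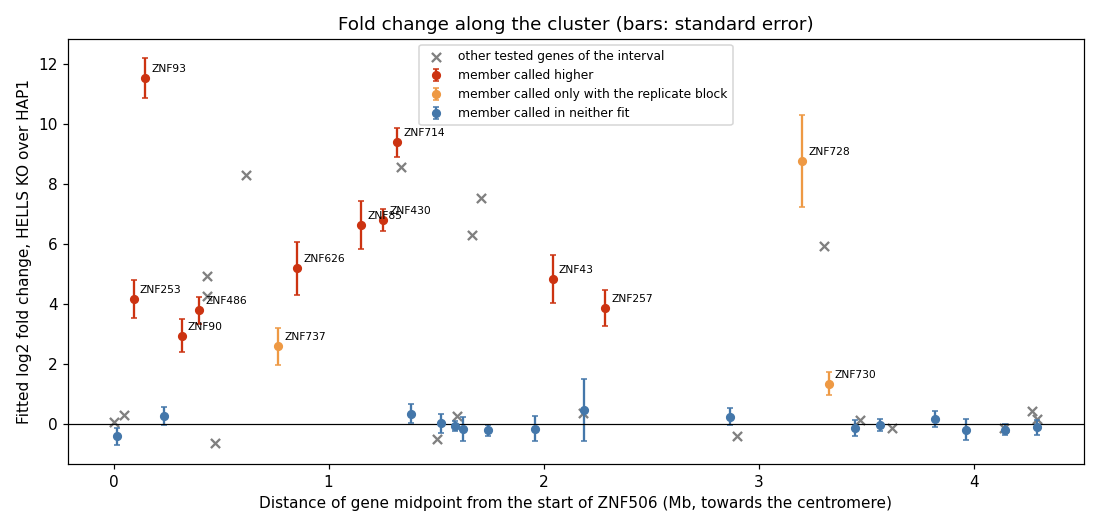
Fitted log2 fold change of HELLS KO over HAP1 against the distance of the gene midpoint from the start of ZNF506 in Mb, for the 29 tested members (bars, standard error) and other tested genes of the interval (crosses, without error). Called members (red), those called only with the block (orange) and others (blue) are shown, and genes at 0 in HAP1 (ZNF93, ZNF728) have fitted values that depend on the prior count. Red points dominate up to ZNF714. From ZNF431 on most members are blue and near 0, except ZNF43 and ZNF257 (red) and ZNF728 and ZNF730 (orange).

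The other annotated genes between ZNF506 and ZNF254 numbered 169, mostly long non-coding RNAs and pseudogenes, and 19 were tested. Of these 6 were called higher and 0 lower in edgeR (0 lower also at an unadjusted p under 0.05 and in DESeq2). The 5 with the largest fitted fold changes were VN1R81P, LINC00664, ENSG00000268119, ENSG00000267886 and ENSG00000280079. VN1R81P, a vomeronasal receptor pseudogene inside ZNF714, had 0 counts in the HAP1 libraries, against 35, 33 and 82 for HELLS KO, so its reads and those of ZNF714 may not be separable. The RNA ENSG00000268119 had 1, 0 and 6 counts in the HAP1 libraries, against 88, 125 and 416 for HELLS KO (log2 fold change 6.30, SE 0.74, adjusted p = 0.0064, edgeR). It lies from 21444241 to 21463908, inside the stretch from ZNF431 to ZNF100 where no member was called. LINC00664, in the same stretch, overlaps the uncalled ZNF429 on its own strand. It had 0 counts in the HAP1 libraries, against 12, 14 and 50 for HELLS KO (adjusted p = 0.035, edgeR). ENSG00000267886 overlaps ZNF730 on its own strand and had 0, 0 and 4 counts in the HAP1 libraries, against 28, 66 and 196 for HELLS KO. ENSG00000280079 had 0, 0 and 5 counts in the HAP1 libraries, against 37, 28 and 103 for HELLS KO.

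Of 30 tested genes in the 1 Mb before ZNF506, 0 were called in either direction by edgeR, with or without the block, or by DESeq2, and 1 had an unadjusted p under 0.05, with a negative fold change. Their median log2 fold change was -0.02. Among other zinc-finger genes of chromosome 19, 28 of 222 tested were called higher (12.6%) and 0 lower, with a median log2 fold change of 0.13. On other chromosomes 13 of 308 were called higher (4.22%) and 2 lower, with a median of 0.04. For the 19p12 genes the share was 34.5% of those tested, with a median of 0.34. Among the other genes between ZNF506 and ZNF254 it was nearly as large, at 31.6% (6 of 19 tested), with a median of 0.30. The called genes of that interval named above had few or no counts in HAP1, so they passed the filter only through HELLS KO. Of the 29 tested 19p12 genes, 11 were tested only through HELLS KO, where they were high. Shares and medians over tested genes are therefore partly set by the filter. The difference between these shares was not tested, and nothing is read from it.

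The machinery through which KRAB zinc-finger proteins act was also measured. None of 25 corepressor genes, among them TRIM28, SETDB1, the HP1 genes CBX1, CBX3 and CBX5, ATRX and the HUSH genes TASOR, MPHOSPH8 and PPHLN1, was called by edgeR, with or without the block, or by DESeq2. Their fold changes on the log2 scale lay between -0.06 and 0.17, and 0 of them had an unadjusted p under 0.05. The same held for 15 tested genes of DNA methylation, including DNMT1, DNMT3A, DNMT3B, UHRF1, CDCA7 and ZBTB24, at log2 fold changes between -0.24 and 0.24. Only RNA was measured here, and the absence of a call does not show that these genes were equal between the genotypes.

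Features of the sequence are given side by side for the 13 genes called with or without the block and for the others. The 13 genes encode 9 to 19 C2H2 fingers by a search of the annotated coding sequence, with a median of 12, and the other 22 encode 5 to 36, with a median of 13. The longest arrays, 36 fingers in ZNF208, 34 in ZNF729 and 31 in ZNF91, belong to genes outside the 13. In the 300-base promoters the number of CG dinucleotides was 8 to 16 with a median of 10 in the 11 of the 13 genes with a promoter in the table, and 9 to 16 with a median of 10 in the other 16. The median over all 35116 promoters was 14. The observed over expected CG ratio had a median of 0.415 and 0.443 in the 2 groups and 0.579 over all promoters. These values are descriptions and were not tested.

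Reads can be hard to place in such a family of similar genes, and the authors discarded reads whose mapping quality was below 20. The share of 100-base exon windows that occur more than once in the genome was at most 0.887% in the 13 genes. It was 31.0% in ZNF98, 22.4% in ZNF492 and 9.45% in ZNF66, whose counts are therefore less certain, and at most 4.11% in the other members. Of the 35 genes, 34 overlap another annotated gene, 32 of them on the opposite strand, and the strand setting of the counting was not given in the sources used here.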

How the data were processed

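RNA-seq of HAP1 and HELLS KO cells was analysed, with 3 libraries of each genotype. The authors aligned reads with STAR 2.7.3a to GRCh38, removed duplicates and reads of mapping quality below 20, and counted the rest per gene with featureCounts 2.0.6. The raw counts they deposited, which are not normalized, were used for all tests. The deposited FPKM values cover the 24956 genes with more than 10 counts in all, and 100% of them could be recomputed within 0.1% from the counts, so they add gene length only. Gene identifiers were matched without version to GENCODE release 44 (56321 of 60483). The annotation version used for counting was not given in the sources used here.

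Genes were tested with edgeR 4.0.16 in R 4.3.3 (filterByExpr, TMM, glmQLFit, glmQLFTest, Benjamini-Hochberg over 17925 genes). Standard errors were the fold change divided by the root of F. Alternatives were DESeq2 1.42.0, limma 3.58.1 on log2(FPKM + 1) and log2(FPKM + 0.1), other normalizations and filters, a replicate block, a batch term and libraries left out. The main fit had no replicate block. Deviations from the genotype mean correlated at 0.468, 0.224 and 0.810 for replicates 1, 2 and 3. The numbers were treated as pairs in the blocked fits. The differently numbered pairs gave 0.660 (HAP1 replicate 2 with HELLS KO replicate 1) and 0.370 (HAP1 replicate 1 with HELLS KO replicate 2). The correlations thus set replicate 3 apart but do not favour the matched numbers for replicates 1 and 2. The fits were tested on simulated counts. Nothing in the labels says that libraries came from separate cultures, although the study's methods call them biological replicates, so p-values measure the spread between these libraries, which may be partly technical. The 35 genes and the gene lists were chosen with earlier results of these data known. Values in every library are given for genes called with or without the block, genes silent in a genotype and the 8 with the highest mean FPKM. Lists of corepressor, DNA methylation, myeloid, erythroid and testis genes were written by hand, and called genes of a list are named up to 5. Fingers were counted by translating annotated coding sequences, as a pair of cysteines and a pair of histidines at the C2H2 spacing. Coordinates and sequences are of GRCh38, the build of the alignment. No column went unmapped to a sample.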

Additional observations from a re-analysis of the deposited data

How the results depend on the processing

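Of 481 refits of single members, 440 kept the side of the cut-offs, 25 lost a call, 16 gained one and 0 reversed. ZNF93, ZNF486, ZNF430 and ZNF714 kept their call in every setting that tested them, and ZNF85 lost it in limma on log2(FPKM + 1) (adjusted p = 0.055). The calls of ZNF253, ZNF90, ZNF626, ZNF43 and ZNF257 were each lost when some single library was left out, without a change of direction, with an adjusted p from edgeR of at most 0.15. A minimum of 10 counts in every library tested 17 members, of which ZNF90 alone was among the 10, and called 0 (ZNF90, adjusted p = 0.14). The 9 others of the 10 were not tested there. It gave a median log2 fold change of -0.07 for the members tested, and 29 genes higher and 48 lower in all. ZNF729 was called lower (1 member) in DESeq2, in DESeq2 with the replicate block and without a filter.

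Without a library, the members called higher ranged from 5 (without HELLS KO replicate 2) to 11 (without HAP1 replicate 3), and the median log2 fold change of all tested members from 0.06 (without HELLS KO replicate 3) to 0.75 (without HAP1 replicate 3). With 3 libraries against 2 the call also fell to 6 without HAP1 replicate 2 or HELLS KO replicate 1. The genes called in all ranged from 112 to 273 higher and from 40 to 176 lower. Over all genes DESeq2 called 426 higher and 244 lower, and no filter 415 and 200. Limma on log2(FPKM + 1) called 146 and 52. Lower genes numbered 267 with the replicate block, 285 with a batch term, 219 in replicates 1 and 2 only, and 258 in DESeq2 with the replicate block, a fit chosen after seeing the data. The main counts were 269 and 129, and 269 and 128 of these genes were also called with the block. Of the 6 untested genes ZNF99 had no count. ZNF729 lay under the filter's level of 0.686 CPM in HAP1 replicates 1 and 2, at 0.422 and 0.509 CPM, and in every HELLS KO library.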
